A study of Homo sapiens with 27 samples.

Results

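The 8 arrays described here are those taken on the third and the fourth day after the WNT inhibitor IWP-2 was first added to differentiating human embryonic stem cells. They are 8 of the 27 arrays of the series and form 4 of its 11 pairs of an array with and an array without IWP-2. The arrays were chosen by their labels alone, after aligning each time course to its own inhibitor start: days 5 and 6 in time course 1, days 4 and 5 in time course 2, each with and without IWP-2. The cells were of the line HuES6, an established human embryonic stem cell line, kept in FTDA medium and replated on Matrigel in a defined medium without serum or serum albumin, based on Knockout-DMEM. All groups, with and without inhibitor, received insulin on day 0, which was withdrawn from day 1, and the fibroblast growth factor FGF2 at 10 ng/ml, the bone morphogenetic protein BMP4 at 1 ng/ml and CHIR00921 at 1 µM during the first 24 hours. The treated arm also received IWP-2, in time course 1 on days 2 and 3 and in the earlier window of time course 2 on days 1 and 2. The labels give no dose for IWP-2 and no hour of its removal. Whether the days are separate cultures is not stated in them. The p-values of the inhibitor effect measure how far the same day's effect differed between the 2 time courses. They rest on these 2 time courses, which also differ in the inhibitor window. They treat the days of a time course as independent, and the spread between arrays may be partly technical. The IWP-2 array of day 6 of time course 1 is also part of another series according to its label.

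IWP-2 blocks Porcupine, the enzyme of the endoplasmic reticulum that attaches a fatty acid to WNT proteins and without which WNT ligands are not secreted in active form. In cultures of pluripotent cells, WNT signalling first drives the formation of mesoderm, and its later block is widely used to direct that mesoderm to cardiomyocytes. The cardiac programme that follows is known for transcription factors such as NKX2-5, GATA4 and MEF2C, and for the genes of the sarcomere, the contractile unit built of thick myosin filaments, thin actin filaments and the Z discs that anchor them.

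On the third and the fourth day, cultures that had received IWP-2 held far more RNA of sarcomere, calcium handling and muscle energy genes. They held less RNA of HOX genes, of other regulators of the posterior body and of fibroblast and matrix genes. Over all 13572 genes tested, 1396 were higher with IWP-2, 10.3% of them, and 1411 were lower, 10.4%. The test was limma's moderated test on the mean inhibitor effect of both days, with a Benjamini-Hochberg adjusted p of 0.05 as the threshold, and "higher" and "lower" below mean past that threshold with and against no IWP-2. The difference reached 2-fold in 472 of the higher and 460 of the lower genes. The median difference over all genes was -0.01 on the log2 scale. The 4 arrays with IWP-2 all lay above the 4 without it for 1014 genes, 7.47% of those tested, and all below for 950, 7%. Taken alone, the third day gave 281 higher genes, 2.07%, and 295 lower genes, 2.17%, and the fourth day gave 1200, 8.84%, and 1180, 8.69%. The count of 2807 genes in both directions depended on single pairs: it was 1469 without the pair of day 5 of time course 1, 2755 without day 6 of time course 1, 1705 without day 4 of time course 2 and 1643 without day 5 of time course 2. With each time course reduced to 1 value, the count was 1304.

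The 8 arrays were of like quality, with a mean signal of 305.1 to 349.5 and 17543 to 18796 probes detected, within or at the upper end of the 225.2 to 349.5 and 16424 to 19784 seen over all 27 arrays. The first principal component of the 8 arrays held 51.4% of the variance and separated the arms: the arrays without IWP-2 scored 29.6 to 42.7, and those with IWP-2 scored -23.1, -29, -25.4 and -65.7. The last of these, day 5 of time course 2 with IWP-2, stood apart from the other 3, and the counts of gene groups below are given with its pair left out where that moves them by more than 1.5 times. Arrays of the same arm correlated at 0.945 to 0.983 over genes and arrays of different arms at 0.888 to 0.961. In whole cultures, a change in the number of cells of a type and a change in the RNA per cell cannot be told apart. The summed linear signal of 9 cardiomyocyte markers was 24100 to 67400 with IWP-2 and 1810 to 3590 without it, and that of 5 fibroblast markers was 1380 to 14300 with and 15400 to 40300 without. Neither range overlapped between the arms.

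Below, the values of an arm are log2 normalised intensities in the order day 5 and day 6 of time course 1, then day 4 and day 5 of time course 2, and a difference is the level with IWP-2 minus the level without it. The lowest signal of a detected probe was 4.81 to 4.96 on this scale, so values under 5 are near background. A fold is written as "at least" where no array of an arm detected the gene. Where only some arrays of an arm detected it, the fold has no such mark but rests partly on values near background.

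The gene with the largest difference was MYH6, the alpha myosin heavy chain of the thick filament and the motor protein of the early human heart. Its levels were 13.81, 14.03, 13.74 and 14.17 with IWP-2 and 5.10, 4.40, 6.98 and 5.19 without it. All 4 treated arrays lay far above all untreated ones, among which day 4 of time course 2 was highest. The mean difference over the 4 pairs was 8.52 ± 0.71, a 366-fold difference (adjusted p = 0.00032). As the treated levels reached the brightest signal of an array, this difference may be understated. After a mean difference, here and below, ± gives limma's moderated standard error (SE) and not the spread of the 4 pairs. The fit pooled the residuals of the first to the fourth day after start and gave each day its own effect. A gap between the third and the fourth day therefore does not widen the SE or raise the p-value. When IWP-2 was first given, MYH6 had stood at 4.38 (time course 1) and 4.31 (time course 2).

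Of 10 thick filament genes tested, of 12 listed, 9 were higher and 0 lower, with a median difference of 2.41. MYL4, the atrial and embryonic light chain of myosin, had levels of 13.17, 13.59, 12.75 and 13.93 with IWP-2 and 9.64, 9.24, 10.07 and 9.27 without it, so that the arms did not overlap. Its difference was 3.81 ± 0.27 (14-fold, adjusted p = 0.00021), while its other probe gave 0.39 ± 0.22, which did not pass. MYL7, the atrial regulatory light chain, was high in both arms, at 12.05, 13.06, 11.06 and 13.83 with and 11.31, 10.82, 10.77 and 9.85 without, and the arms overlapped. Its difference was 1.81 ± 0.32 (adjusted p = 0.0073), and without day 5 of time course 1 it was 1.70 with an adjusted p of 0.051.

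MYOM1, which ties thick filaments together at the M band, stood higher on the fourth than on the third day in the treated arm of each time course. It stood at 6.55 (day 5) and 10.05 (day 6) in time course 1 and at 5.70 (day 4) and 12.42 (day 5) in time course 2, against 4.96 to 5.24 without IWP-2. Its mean difference was 3.61 ± 0.35 (adjusted p = 0.00055). MYL3, the ventricular essential light chain, followed the same order, at 6.11, 9.82, 5.10 and 12.38 with and 5.56, 5.74, 5.24 and 4.83 without, a difference of 3.01 ± 0.46 (adjusted p = 0.0041). In both genes the fourth day was the high one in each time course, and for MYL3 the treated array of day 4 of time course 2 lay below that day's untreated one. MYH7, the beta heavy chain, was above background on 3 of 4 treated arrays, at 4.67, 5.32, 5.70 and 7.89 against 4.31 to 4.43 without IWP-2. Its difference was 1.53 ± 0.36, at least 2.05-fold (adjusted p = 0.023), and the call was lost without day 5 of time course 1 (adjusted p = 0.059) or day 4 of time course 2 (0.12). The difference of MYH7B, a slow myosin heavy chain gene, was 0.01 and did not pass. The count of 9 thick filament genes was 5 without the pair of day 5 of time course 1, 8 without day 5 of time course 2 and 3 when the 8 arrays were fitted on their own.

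Of the 12 thin filament genes, all tested, 9 were higher and 1 was lower, with a median difference of 1.34. TNNC1, the calcium sensor of cardiac and slow muscle troponin, had 10.04, 11.72, 8.91 and 13.75 with IWP-2 and 6.32, 6.42, 7.49 and 6.94 without it. The difference was 4.31 ± 0.40 (19.9-fold, adjusted p = 0.00047), with no overlap of the arms. NEBL, the nebulin-like protein of heart thin filaments, was even across the treated arrays at 10.71, 11.41, 10.28 and 11.89 and stood at 7.21, 6.18, 7.36 and 7.40 without IWP-2, a difference of 4.03 ± 0.22 (adjusted p = 0.00013). ACTC1, cardiac actin, was already bright without inhibitor, at 11.42, 9.79, 11.92 and 11.51, and reached 13.85, 13.95, 13.31 and 14.11 with it. That is a difference of 2.65 ± 0.35 (6.26-fold, adjusted p = 0.0022). ACTA1, skeletal actin, which the early heart also expresses, had 7.89, 9.18, 9.19 and 13.10 with and 5.60, 4.93, 9.09 and 8.46 without. Its arms overlapped through time course 2, where the untreated levels were high, and the difference was 2.82 ± 0.31 (adjusted p = 0.00096).

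The one thin filament gene that was lower was TNNT1, the slow skeletal troponin T, with a difference of -1.21 ± 0.17 (adjusted p = 0.0028). The troponin I genes TNNI3 and TNNI1 were higher by 1.52 and 0.81 and the tropomyosins TPM1 and TPM2 by 1.16 and 0.74, while 2 of the other TPM1 probes, at 0.33 and 0.42, did not pass. The leiomodins LMOD2 and LMOD3, which lengthen thin filaments, had differences of 0.02 and -0.20, neither past the threshold. The count of 9 was the same without each pair in turn and was 6 when the 8 arrays were fitted on their own.

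The Z disc and sarcomere assembly list moved furthest, with 21 of 23 tested genes higher, of 29 listed, 0 lower and a median difference of 2.82. SMYD1, a methyltransferase of heart and skeletal muscle that is needed for sarcomere assembly, had 11.06, 10.55, 10.99 and 12.04 with IWP-2 and 5.79, 4.36, 5.01 and 4.30 without it. The difference was 6.30 ± 0.48 (78.6-fold, adjusted p = 0.00025) and the arms did not overlap. UNC45B, a chaperone that folds muscle myosin, had 9.46, 9.14, 8.96 and 10.23 with and 5.01, 4.57, 4.26 and 4.21 without, a difference of 4.93 ± 0.24 (30.6-fold, adjusted p = 6.1e-05). SMPX, a small protein of the muscle costamere, had 8.55, 10.69, 6.48 and 12.15 with IWP-2 while its 4 untreated values, 4.22 to 4.69, were not above background. This was a difference of 5.00 ± 0.37, at least 24.4-fold (adjusted p = 0.00024), with the third day lower than the fourth in each time course.

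Other members of the list had smaller differences of the same sign. SYNPO2L, a Z disc protein, was higher by 4.48 ± 0.24, at least 16.9-fold, and ACTN2, the alpha-actinin that crosslinks actin at the Z disc, by 2.90 ± 0.27, at least 5.22-fold (adjusted p = 0.00046). HSPB7, TRIM55, XIRP1 and LDB3 were higher by 4.12, 3.66, 3.57 and 2.82, but a further probe of TRIM55, at 0.40, and one of LDB3, at 0.28, did not pass. TTN, the giant titin that spans from Z disc to M band, was higher by 1.19 ± 0.20, at least 1.67-fold (adjusted p = 0.0057), but its other probe gave 0.37 and did not pass. DES, the muscle intermediate filament desmin, and MYOZ2, a Z disc protein of slow and heart muscle, did not pass, at 0.32 (adjusted p = 0.11) and 0.15 (0.3). Without each pair in turn 19 to 22 genes of the list were higher.

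**Figure D1:**
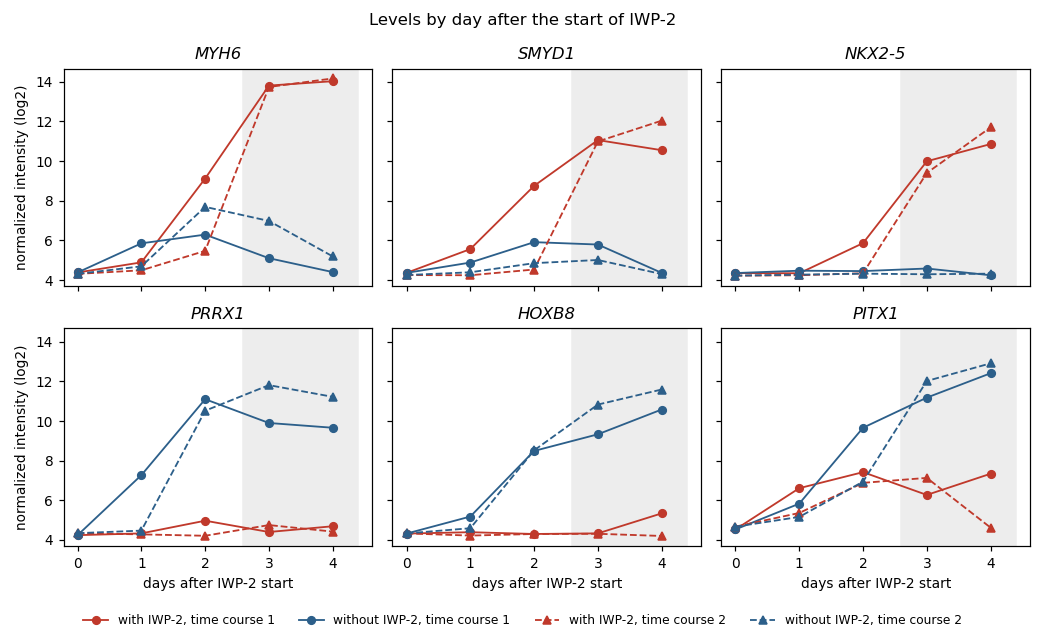
Normalised log2 intensity (vertical axis) of MYH6, SMYD1, NKX2-5, PRRX1, HOXB8 and PITX1 against days after IWP-2 start (horizontal axis), in red with and in blue without IWP-2, circles and solid lines for time course 1, triangles and dashed lines for time course 2, each point 1 array. The grey band marks the third and the fourth day, where MYH6 stood at 13.74 to 14.17 with IWP-2 and at 4.40 to 6.98 without it, and where PRRX1 stood at 4.40 to 4.75 with and at 9.66 to 11.81 without.

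Among 13 tested calcium handling genes, of 14 listed, 7 were higher and 1 lower, with a median of 1.58, which was 0.84 without day 5 of time course 2. The count of higher genes was 9 when all kept probes of a gene were averaged and 5 when the 8 arrays were fitted on their own. HRC, a calcium-binding protein of the sarcoplasmic reticulum, the calcium store of muscle, had 10.18, 10.44, 8.30 and 10.81 with IWP-2 and 6.71, 5.10, 5.43 and 4.73 without it. The arms did not overlap and the difference was 4.44 ± 0.27 (adjusted p = 0.00013). PLN, the phospholamban that restrains the calcium pump, had 7.55, 8.18, 6.24 and 10.03 with and 5.58, 4.52, 4.64 and 4.61 without, a difference of 3.16 ± 0.26 (adjusted p = 0.00031), which its other probe, at 0.52, did not reach. The calcium release channel RYR2 was higher by 1.94 ± 0.17 (adjusted p = 0.00037), the calcium pump ATP2A2 by 1.90 ± 0.17 (adjusted p = 0.00041) and SRL, the sarcalumenin of the same store, by 3.66 ± 0.32, at least 9.89-fold (adjusted p = 0.0004). A further ATP2A2 probe gave -0.07.

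SLN, the small inhibitor of the calcium pump known from atrium and skeletal muscle, went the other way. Its levels were 5.13, 7.24, 4.27 and 4.95 with IWP-2 and 5.54, 9.80, 4.84 and 9.90 without, so that the untreated arm was high on the fourth day in both time courses and near the treated arm on the third. The mean difference was -2.12 ± 0.32 (adjusted p = 0.0036), the difference on the fourth day alone was -3.76, and the 8 arrays fitted on their own gave an adjusted p of 0.13.

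Ion channel and junction genes divided, with 3 of 9 tested higher and 1 lower and a median of 0.03. POPDC2 and POPDC1, membrane proteins of heart and muscle, were higher by 2.45 and 1.22, and the potassium channel KCNH2 by 1.58. POPDC1 lost the call without day 5 of time course 1 (adjusted p = 0.05) and KCNH2 without day 4 of time course 2 (0.055), and the other KCNH2 probe, at 0.32, did not pass. GJA1, the connexin that couples ventricular muscle cells and is also common outside the heart, was lower, at 9.90, 9.10, 10.09 and 7.61 with and 11.86, 10.84, 12.41 and 11.29 without, a difference of -2.42 ± 0.29 (adjusted p = 0.0014). Of the 4 tested natriuretic and stretch genes, of 6 listed, ANKRD1 (2.26 ± 0.22, adjusted p = 0.00066), CORIN (1.62) and NPPB (1.15 ± 0.20, adjusted p = 0.0066) were higher, and NPPA, the atrial natriuretic peptide, did not pass at 0.73 ± 0.27 (adjusted p = 0.10).

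Over the 58 tested genes of the 4 filament, Z disc and calcium lists, of 67 listed, 46 were higher and 2 lower, with a median of 1.92 beside -0.01 over all genes. The count of higher genes was 43 without day 5 of time course 2, the treated array that stood apart, between 39 and 48 without each pair in turn, and 30 when the 8 arrays were fitted alone. In 36 of the 58 genes all treated arrays lay above all untreated ones, and in 1 all below. Of the 58 genes, 21 were not above background on any of the 4 untreated arrays, beside 1331 of all 13572 genes. Such genes passed the detection filter through other arrays, the treated ones among them, and could hardly come out lower. The counts above are limited by this. By pair, the median difference was 1.34 on day 5 and 2.45 on day 6 of time course 1, and 0.80 on day 4 and 3.41 on day 5 of time course 2. The third day alone gave 23 higher and 0 lower, and the fourth alone 48 higher and 2 lower.

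To show what stands directly before these genes, the 250 bases upstream of the transcription start were taken from RefSeq (GRCh38.p14) for 7 contractile genes and for PRRX1, the gene with the largest negative difference. MYH6 and SMYD1 led their lists, and the other 5 are the contractile genes that were higher and held a CArG box. The stretches of SMPX and PITX1, also among the genes with the largest differences, were searched too. They held no match to the motifs below and are not shown. The site of GATA factors was searched for as the letters AGATAA. That of TCF and LEF factors was searched for as CTTTGAT, and the core promoter element known as the TATA box as TATAAA. The CArG box, the serum response factor site of muscle genes, was searched for as CCWWWWWWGG, where W stands for A or T. Both strands were read, matches are in capitals, and none overlapped another. They read 5′ to 3′ on the gene's strand and end at the base before the start.
MYH6: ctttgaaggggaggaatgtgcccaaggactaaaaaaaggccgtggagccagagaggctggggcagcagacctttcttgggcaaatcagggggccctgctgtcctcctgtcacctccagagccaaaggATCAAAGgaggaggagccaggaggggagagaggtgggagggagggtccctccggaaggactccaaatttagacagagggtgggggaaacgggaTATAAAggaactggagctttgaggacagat
SMYD1: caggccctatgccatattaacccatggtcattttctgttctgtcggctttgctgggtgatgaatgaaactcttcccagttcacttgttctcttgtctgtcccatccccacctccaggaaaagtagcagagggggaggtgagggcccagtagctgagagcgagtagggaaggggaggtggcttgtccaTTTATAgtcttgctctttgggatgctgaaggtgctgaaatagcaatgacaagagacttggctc
MYOM1: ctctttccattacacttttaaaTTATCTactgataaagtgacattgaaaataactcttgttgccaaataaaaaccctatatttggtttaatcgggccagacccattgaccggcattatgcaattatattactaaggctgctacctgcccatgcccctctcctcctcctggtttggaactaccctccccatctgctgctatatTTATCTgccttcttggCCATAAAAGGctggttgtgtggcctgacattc
LDB3: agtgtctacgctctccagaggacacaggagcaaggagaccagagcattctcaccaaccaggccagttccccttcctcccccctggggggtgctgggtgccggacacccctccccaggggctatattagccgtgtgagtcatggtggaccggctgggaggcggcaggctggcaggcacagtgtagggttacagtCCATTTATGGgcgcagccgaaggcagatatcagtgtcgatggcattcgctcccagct
ACTA1: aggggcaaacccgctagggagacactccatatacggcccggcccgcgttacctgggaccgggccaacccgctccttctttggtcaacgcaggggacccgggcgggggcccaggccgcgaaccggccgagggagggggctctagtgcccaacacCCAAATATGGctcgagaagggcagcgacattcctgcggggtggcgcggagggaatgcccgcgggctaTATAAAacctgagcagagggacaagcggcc
ACTC1: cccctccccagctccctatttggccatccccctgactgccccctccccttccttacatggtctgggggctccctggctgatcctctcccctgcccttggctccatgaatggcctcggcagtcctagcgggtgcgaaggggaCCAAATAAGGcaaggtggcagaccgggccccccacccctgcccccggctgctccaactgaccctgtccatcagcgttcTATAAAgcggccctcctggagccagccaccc
MYL7: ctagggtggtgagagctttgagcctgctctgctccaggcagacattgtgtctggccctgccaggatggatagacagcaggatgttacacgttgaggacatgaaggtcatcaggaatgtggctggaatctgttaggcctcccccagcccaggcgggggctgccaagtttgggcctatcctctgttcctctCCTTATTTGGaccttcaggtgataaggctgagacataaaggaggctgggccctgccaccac
PRRX1: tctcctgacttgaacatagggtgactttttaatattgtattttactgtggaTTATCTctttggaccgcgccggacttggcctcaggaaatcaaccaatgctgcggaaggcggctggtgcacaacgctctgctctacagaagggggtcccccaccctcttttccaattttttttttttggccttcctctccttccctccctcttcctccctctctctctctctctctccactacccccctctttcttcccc

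The MYH6 stretch lies at chr14:23408274-23408523 on the minus strand and holds a TATA box 30 to 25 bases before the start and a TCF/LEF match, read on the opposite strand, 123 to 117 bases before it. SMYD1 (chr2:88067575-88067824, plus) has a TATA match on the opposite strand at 63 to 58. MYOM1 (chr18:3219969-3220218, minus) has GATA matches on the opposite strand at 228 to 223 and 48 to 43 and a CArG box at 32 to 23. The CArG box lies at 57 to 48 in LDB3 (chr10:86668261-86668510, plus) and at 61 to 52 in MYL7 (chr7:44141333-44141582, minus). ACTA1 (chr1:229434095-229434344, minus) carries a TATA box at 30 to 25 and a CArG box at 97 to 88, and ACTC1 (chr15:34795550-34795799, minus) a TATA box at 31 to 26 and a CArG box at 109 to 100. PRRX1 (chr1:170663881-170664130, plus) has a GATA match on the opposite strand at 199 to 194.

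An entry was found for 35 of the 46 contractile genes that were higher, and 5 of these 35, 14.3%, held a CArG box, beside 1.14% of all 27305 promoters of this length and 1.18% of the 10806 promoters of tested genes. A TATA match, counted on either strand and anywhere in the stretch, stood in 8 of the 35 (22.9%), beside 11.1% and 6.13%. A GATA match stood in 6 (17.1%), beside 9.37% and 5.1%, and a TCF/LEF match in 1 (2.86%), beside 2.28% and 1.49%. Of the 32 HOX, fibroblast and posterior genes that were lower, 16 had an entry. Of these, 2 held a TATA match (12.5%), 2 a GATA match (12.5%), and 0 a TCF/LEF match or a CArG box. These are matches of letters only, and whether a factor binds them was not measured. NKX2-5, HOXB8, LUM and DCN had no entry.

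Genes of muscle energy metabolism were higher together: 11 of 13 tested were higher, of 14 listed, and 0 lower, with a median of 1.75. PPARGC1A, the coactivator that drives the making of mitochondria, had 8.24, 9.45, 7.95 and 9.90 with IWP-2 and 4.62, 4.26, 4.53 and 4.36 without, where it was not above background. The difference was 4.44 ± 0.12, at least 16.3-fold (adjusted p = 8.5e-06). CKM, the muscle creatine kinase, was also higher on the fourth day of each treated time course, at 7.48, 10.41, 6.14 and 12.04 against 4.22, 4.26, 4.87 and 4.40, a difference of 4.58 ± 0.34 (24-fold, adjusted p = 0.00024). MB, the oxygen-binding myoglobin, and ENO3, the muscle enolase, were higher by 3.89 ± 0.26 (adjusted p = 0.00017) and 3.65 ± 0.29 (0.00028), with 1 of the 3 MB probes, at 0.32, not passing. Of these 13 genes 5 were higher on the third day alone and 11 on the fourth. The count of higher genes was 8 to 11 without each pair in turn, and 9 without day 5 of time course 2, and the 8 arrays alone gave 7.

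Glycolysis and respiratory chain genes had smaller differences that depended on the pair. Of 18 glycolysis genes, 13 were higher and 0 lower with a median of 0.70, but 5 were higher without day 5 of time course 1, 5 without day 5 of time course 2, 8 without day 6 of time course 1 and 4 without the replicate block. The neuronal enolase ENO2 (1.83) and the hexokinase HK1 (1.30), the first enzyme of the pathway, were among those with the largest differences, while GAPDH, at 0.54, lost the call without any 1 of the pairs. Of 15 tested respiratory chain genes, 12 were higher and 0 lower with a median of 0.53, led by ATP5MC1, a subunit of ATP synthase (1.16), and SDHA, of complex II (0.92). That count was 12 without day 6 of time course 1 and 5 to 7 without each of the others, and 14 genes were higher on the fourth day alone.

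Cardiac transcription regulators were higher in 12 of 24 tested genes, of 25 listed, and lower in 4, with a median of 0.88. NKX2-5, the homeobox factor that marks committed heart precursors, had 9.99, 10.86, 9.40 and 11.70 with IWP-2 and 4.58, 4.24, 4.29 and 4.32 without, where it was not above background. Its difference was 6.13 ± 0.22, at least 49.5-fold (adjusted p = 2.4e-05), and 1 of the treated arrays of the day before, day 4 of time course 1, stood at 5.86. MEF2C, a partner of the muscle programme, had 8.36, 8.65, 8.83 and 9.22 with and 5.17, 5.35, 4.40 and 5.24 without, a difference of 3.73 ± 0.35 (13.3-fold, adjusted p = 0.00047). In both genes the arms were already far apart on the third day, in each time course.

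GATA4, which acts with NKX2-5, was present in both arms, at 8.40, 8.35, 8.22 and 8.16 with and 6.85, 6.64, 5.70 and 5.81 without, a difference of 2.03 ± 0.18 (4.09-fold, adjusted p = 0.00038). ISL1, a factor of heart progenitors, had 11.00, 10.92, 11.95 and 10.19 with and 7.77, 5.39, 9.25 and 9.02 without, and 3.15 ± 0.59 (adjusted p = 0.0087). It was 3.02 without day 5 of time course 1, with an adjusted p of 0.055, and 2.06 without day 6 of time course 1, the pair with the lowest untreated level. NKX2-6, a relative of NKX2-5, was higher by 2.86 ± 0.21 (adjusted p = 0.00024), and MYOCD, the coactivator myocardin, by 2.29 ± 0.37, at least 3.93-fold (adjusted p = 0.0048). TBX20 was higher by 0.73 ± 0.10, at least 1.23-fold (adjusted p = 0.0029). Near the threshold were the ventricular factor IRX4, at 1.50 ± 0.34 (adjusted p = 0.019), and TBX5, at 1.02 ± 0.28 (0.04) and above background on 2 treated arrays. IRX4 lost the call without day 5 of time course 1 or day 4 of time course 2 and fell to 0.88 without day 5 of time course 2, and TBX5 lost it without either pair of time course 1.

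4 cardiac regulators were lower with IWP-2. HAND1, a factor of the left ventricle and of extraembryonic and lateral mesoderm, was bright in both arms, at 12.10, 13.01, 12.42 and 13.13 with and 13.89, 13.86, 13.90 and 13.95 without, a difference of -1.24 ± 0.13 (adjusted p = 0.00091). TBX3, a repressor in the conduction system and limb, differed by -1.58 (its other probe, at -0.25, did not pass) and GATA6 by -0.51 ± 0.12 (adjusted p = 0.021). HOPX, a homeodomain-only protein, had 7.18, 8.66, 4.31 and 6.94 with and 9.98, 8.31, 9.42 and 9.53 without, so that day 6 of time course 1 went against the other pairs, and -2.54 ± 0.55 (adjusted p = 0.017). The other HOPX probe, at -0.36, did not pass. HOPX lost the call without either pair of time course 2 and GATA6 without any pair but day 5 of time course 1, so that 2 regulators were lower without a pair of time course 2. HAND2, of the right ventricle, did not pass, at -0.14 ± 0.39 (adjusted p = 0.84).

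The early cardiac mesoderm list, which holds genes of the stage before, gave 5 higher and 3 lower of 13 tested, with a median of 0.36. BMPER, a modulator of BMP ligands, was higher by 3.11 ± 0.38 (adjusted p = 0.0015), and FGF8, a growth factor of the heart fields, by 2.30, at least 3.46-fold. APLNR, the apelin receptor, at 0.85, and KDR, the VEGF receptor of cardiac and vascular progenitors, at -0.84 (adjusted p = 0.01), both lost the call without day 5 of time course 1. SFRP5, a secreted WNT antagonist of the venous pole, was 9.28 and 9.48 with IWP-2 in time course 1 but 7.64 and 4.37 in time course 2, against 6.33, 5.19, 4.34 and 4.39 without. Its difference of 2.63 ± 0.66 (adjusted p = 0.027) was lost without day 5 of time course 1, day 6 of time course 1 (1.55) or day 4 of time course 2. Without day 5 of time course 1, 3 genes of the list were higher.

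4 genes outside these lists were among the 10 with the largest positive differences. CSHL1, annotated as a chorionic somatomammotropin-like gene, had 9.51, 10.02, 9.53 and 10.64 with IWP-2 and was not above background without it, a difference of 5.48 ± 0.23, at least 33.5-fold. It belongs to a family of near-identical growth hormone genes and its other probe gave -0.23 ± 0.15 (adjusted p = 0.36), so the identity of the signal is uncertain. SGPP2, a sphingosine 1-phosphate phosphatase, had 9.16, 9.66, 8.43 and 10.06 with and was not above background without, and 4.94 ± 0.21, at least 22.2-fold. TAFA4, a secreted chemokine-like protein, had 10.35, 9.72, 9.44 and 10.31 with and 6.22, 4.96, 5.37 and 4.67 without, and 4.65 ± 0.27. ADGRG2, an adhesion G protein-coupled receptor, had 8.77, 7.88, 9.37 and 9.77 with and was not above background without, and 4.49 ± 0.28, at least 17-fold. Unlike the other 3, ADGRG2 had been bright when IWP-2 was started, at 10.15 and 6.24, and fell by 3.74 from then in the arm without the inhibitor.

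**Figure D2:**
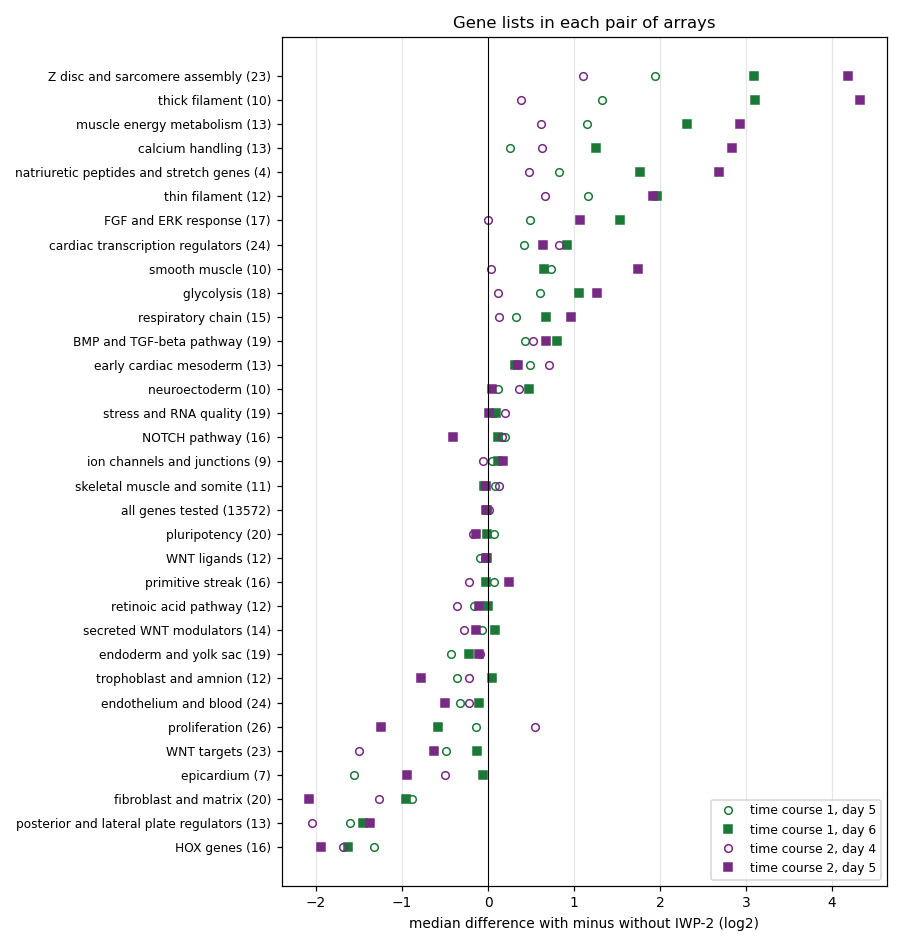
Median difference (log2, with minus without IWP-2, horizontal axis) over the tested genes of each of the 32 lists and of all genes (vertical axis), 1 point per pair, open circles for the third and filled squares for the fourth day after start, green for time course 1 and purple for time course 2. The Z disc list reached 3.09 and 4.18 on the fourth day, the HOX list lay between -1.33 and -1.94 in every pair, and the medians over all genes lay between -0.02 and 0.01.

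The WNT targets were lower in part, and whether the pathway itself was still inhibited on these days was not tested. Of 23 tested genes, of 24 listed, 10 were lower and 3 higher, with a median of -0.70, which was -0.24 without day 4 of time course 2. The median had been -1.41 and -1.42 on the first and second day and stood at -0.91 and -0.25 on the third and the fourth. AXIN2, the negative feedback gene of the pathway, had 7.55, 7.91, 7.95 and 9.27 with IWP-2 and 8.23, 8.38, 9.76 and 9.18 without, so that the treated array was lower in 3 pairs and about equal on day 5 of time course 2. Its difference was -0.72 ± 0.21 (adjusted p = 0.046), and the call was lost without day 6 of time course 1, day 4 of time course 2 or day 5 of time course 2. LEF1, a transcription factor of the pathway, had 9.53, 10.20, 9.80 and 8.67 with and 10.44, 10.16, 11.53 and 10.32 without, and -1.06 ± 0.31 (adjusted p = 0.049). LEF1 and SP5 (-0.94, adjusted p = 0.031) lost the call without any pair but day 6 of time course 1, and the other LEF1 probe, at -1.01, did not pass.

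The list's strongest members were genes of the posterior mesoderm. MSX1, a homeobox factor of limb and posterior mesoderm, had 8.25, 9.39, 7.86 and 9.45 with and 12.54, 12.75, 12.94 and 13.14 without, a difference of -4.10 ± 0.16 (17.2-fold, adjusted p = 3.1e-05), and was lower on each of the 4 days after start. CDX2, which turns on HOX genes of the trunk, was not above background with IWP-2 and had 8.35, 7.14, 10.42 and 8.99 without, and -4.19 ± 0.37, at least 14.4-fold (adjusted p = 0.0004). APCDD1, a WNT inhibitor at the membrane, was lower, at -1.86, and the receptor FZD7 was higher by 1.23, a call lost without either pair of time course 1 and not made by its other probe (0.28). The list gave 6 lower genes without day 5 of time course 2 and 7 to 10 without each of the others. It gave 0 higher genes without day 5 of time course 1 and 2 without each of the others. Without the replicate block 5 were lower and 1 was higher.

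Ligands and secreted modulators of WNT did not move as a group. Of 12 tested WNT ligands, of 19 listed, 1 was higher and 2 lower. WNT2, known from the early heart, had 7.38, 8.61, 6.64 and 10.97 with IWP-2 and 4.56, 4.67, 4.67 and 4.90 without, and 3.70 ± 0.38 (adjusted p = 0.0008). The 2 lower ones, WNT5B (-1.20) and WNT3 (-0.62), both lost the call without day 6 of time course 1 or day 5 of time course 2, and WNT3 also without day 5 of time course 1. The list gave 1 lower gene without day 5 of time course 2. Of 14 tested modulators 3 were higher and 3 lower, and without single pairs 1 to 4 were higher and 1 to 4 lower. FRZB, a secreted frizzled-related antagonist, had 6.83, 7.96, 7.32 and 6.18 with and 10.44, 11.84, 8.81 and 10.94 without, and -3.44 ± 0.31.

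DKK1, a secreted WNT antagonist and WNT target, was on opposite sides of the untreated arm on the early and the late days. On the day of start it stood at 8.71 and 9.56. On the first and second day it was at 4.48, 5.63, 4.56 and 5.18 with IWP-2 and at 9.44, 8.02, 7.68 and 8.68 without, and on the third and the fourth it was at 6.40, 9.41, 7.46 and 8.02 with and at 5.43, 4.99, 6.43 and 5.87 without. The effect per day was -4.04, -2.94, 1.00 and 3.28, of which the last passed (adjusted p = 0.0089) and the others did not. The mean of the last 2 days was 2.14 ± 0.41 (adjusted p = 0.0098), with an adjusted p of 0.053 without day 5 of time course 1 and 0.051 without day 4 of time course 2, and its other probe gave 0.39, which did not pass.

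HOX genes and other posterior regulators were the counterpart of the cardiac lists. Among 16 tested HOX genes 11 were lower and 0 higher, with a median of -1.78, and the other 23 of the 39 listed were not tested. Of the 16, 5 were not above background on any of the 4 arrays with IWP-2, beside 1399 of all 13572 genes. Those 5 could hardly come out higher. HOXB8, of the trunk, had 4.33, 5.34, 4.31 and 4.20 with IWP-2 and 9.33, 10.58, 10.83 and 11.59 without, a difference of -6.04 ± 0.35 (65.6-fold, adjusted p = 0.00013). HOXC8 was not above background with IWP-2 and had 6.80, 8.87, 8.57 and 9.58 without, and -4.17 ± 0.33, at least 12-fold. The untreated arrays of both genes were lowest on day 5 of time course 1, and the arms did not overlap.

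Further HOX genes were lower, with HOXC6 at -4.38 ± 0.30, HOXB6 at -3.99, HOXB7 at -3.17, HOXC4 at -2.57 and HOXB3 at -1.94. The other probes of HOXC6, at -0.22 and -0.25, of HOXB6, at -0.21, and of HOXC4, at -0.19, did not pass. HOXB5, at -2.33 ± 0.61 (adjusted p = 0.033), lost the call without any pair but day 6 of time course 1 and was -1.49 without day 5 of time course 2. The count of lower HOX genes was 8 to 12 without each pair in turn. Of 13 tested posterior and lateral plate regulators, of 14 listed, 7 were lower and 0 higher with a median of -1.75. Among them FOXF1, a forkhead factor of splanchnic mesoderm, differed by -3.59 ± 0.22, MSX2 by -1.75 and CDX1 by -2.10, at least 3.19-fold.

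PRRX1, a homeobox factor of limb and connective tissue mesenchyme, had the largest negative difference. It stood at 4.40, 4.69, 4.75 and 4.42 with IWP-2, where it was not above background, and at 9.90, 9.66, 11.81 and 11.22 without. The difference was -6.08 ± 0.48, at least 54.6-fold (adjusted p = 0.00027), and its other probe gave -1.79. PRRX1 had also been near background when IWP-2 was started, at 4.24 and 4.34, and had reached 11.10 and 10.52 by the second day without the inhibitor. PITX1, a homeobox factor of the hindlimb, had 6.27, 7.34, 7.13 and 4.62 with and 11.18, 12.41, 12.02 and 12.91 without, and -5.79 ± 0.51 (adjusted p = 0.00041). BNC2, a zinc finger gene of mesenchyme, had 5.28, 6.26, 5.15 and 4.42 with and 9.54, 10.11, 9.51 and 9.66 without, and -4.42 ± 0.29. In all 3 genes the arms were apart in every pair.

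Fibroblast and matrix genes were lower in 14 of 20 tested, of 21 listed, and higher in 0, with a median of -1.29. LUM and DCN, small proteoglycans of collagen fibres, differed between the time courses in the treated arm. LUM had 7.08, 10.56, 4.69 and 4.69 with IWP-2 and 12.30, 12.93, 12.40 and 12.97 without, and -5.90 ± 0.86 (adjusted p = 0.0032). DCN had 4.74, 8.68, 4.39 and 4.31 with and 10.60, 12.97, 9.67 and 12.45 without, and -5.89 ± 0.57 (adjusted p = 0.00055). Both were raised on day 6 of time course 1 with IWP-2 compared with the other treated arrays, still below every untreated one.

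COL3A1, a fibrillar collagen, showed the same division more clearly, at 10.79 and 12.93 with IWP-2 in time course 1 and 6.00 and 7.04 in time course 2, against 13.37, 13.92, 12.52 and 13.34 without. Its mean difference was -4.10 ± 0.86 (adjusted p = 0.014), with an adjusted p of 0.077 without day 4 of time course 2 and 0.11 without the replicate block. Taken alone, time course 1 gave -1.77 and time course 2 gave -6.41, and the test of that gap, -4.64 ± 0.55, did not pass (adjusted p = 0.74). COL6A3 differed by -4.15 ± 0.40, POSTN, the periostin of embryonic mesenchyme and valves, by -3.09 ± 0.18, at least 6.08-fold, and PDGFRB, the PDGF receptor of mural cells, by -2.51. COL1A1, the most abundant collagen, was lower by little, at -0.99 ± 0.26 (adjusted p = 0.033), a call lost without any pair but day 6 of time course 1. Between 10 and 15 genes of the list were lower without each pair in turn and 9 without the replicate block. When all kept probes of a gene were averaged, 1 gene of the list was higher and 14 were lower.

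Lists of other cell types that such a culture could hold moved less. Of 10 tested smooth muscle genes, of 11 listed, 4 were higher and 2 lower with a median of 0.78, which was 0.51 without day 5 of time course 1 and 0.48 without day 5 of time course 2. CNN1, a calponin of smooth muscle that the early heart also expresses, had 7.62, 7.69, 7.85 and 9.40 with and 6.13, 5.81, 5.59 and 5.64 without, and 2.35 ± 0.30 (adjusted p = 0.0018). TAGLN was higher by 1.27 ± 0.26 (adjusted p = 0.012), without day 5 of time course 1 by 0.84, and lost the call without day 5 of time course 2. Without either of those pairs 2 smooth muscle genes were higher and 1 was lower. The sum of 4 smooth muscle markers was 2740 to 21100 with IWP-2 and 1840 to 4960 without, and the arms overlapped.

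Epicardial genes, of the outer layer of the heart, were lower in 3 of 7 tested and higher in 0, with TCF21 at -2.59 ± 0.41, ALDH1A2 at -2.43 ± 0.35 and BNC1 at -2.16 ± 0.22. TBX18, another marker of the layer, had 7.01, 8.44, 4.71 and 4.46 with IWP-2 and 4.28 to 4.96 without, high on the treated arrays of time course 1 alone, and its difference of 1.58 ± 0.54 did not pass (adjusted p = 0.078). Without day 5 of time course 2, 1 epicardial gene was higher. Endothelial and blood genes were lower in 7 of 24 tested, of 30 listed, and higher in 1, with a median of -0.32, which was -0.13 without day 5 of time course 2. CD34 and FLI1, of endothelial and blood precursors, differed by -1.21 and -1.11 (1 of the 3 CD34 probes, at -0.22, did not pass), and TEK, a receptor of vessels, by -1.69 ± 0.43 (adjusted p = 0.03), which was lost without either pair of time course 2. Without the replicate block 2 genes of the list were lower. Endoderm and yolk sac genes were lower in 7 of 19 tested and higher in 1, with a median of -0.30. Without each pair in turn the median was -0.52 to -0.18, and 3 were higher without day 5 of time course 2. Lower were, among others, APOA1 at -1.30 and FGB, a fibrinogen chain, at -1.05, at least 1.52-fold, which lost the call without day 6 of time course 1 and was -0.69 without day 5 of time course 1.

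The markers of each of these types were also summed for both arms, and as probes differ in brightness the sums compare arms, not cell types. An offset of 16, added to each intensity before log2, was left in these sums. Markers near background therefore still add to them, and low sums, such as 20.2 for PAX7, are largely background. They were 66.3 to 652 with and 411 to 532 without IWP-2 for epicardium (3 markers), 154 to 976 and 793 to 1890 for endothelium (4), 422 to 979 and 572 to 1440 for endoderm (5) and 46.8 to 77.8 and 43.7 to 66 for blood (2 of 4 tested). Pluripotency markers (3) summed to 65 to 208 with and 76.5 to 220 without, trophoblast markers (2 of 3 tested) to 79.2 to 162 and 93.7 to 191, and the 1 of 4 skeletal muscle markers tested, PAX7, to 20.2 to 68.7 and 20.4 to 24. The skeletal muscle factors MYOD1, MYF5 and MYOG, the neural factors PAX6 and SOX1 and the blood markers GATA1 and HBZ were below the detection filter, and NANOG was not above background on any of the 8 arrays. The part of these cell types in the differences above was not tested.

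Signalling genes of other pathways also differed. JAG1, a NOTCH ligand, had 9.85, 9.74, 10.11 and 9.00 with IWP-2 and 4.98, 4.94, 5.89 and 5.33 without, and 4.39 ± 0.19 (21-fold, adjusted p = 3.3e-05). Its effect was 1.25 on the first day, which did not pass, and 3.08 on the second (adjusted p = 0.02), so the gap was there before the third day. Of 16 tested NOTCH pathway genes 2 were higher, JAG1 and HES4 (1.73), and 3 lower: the receptors NOTCH2 (-1.09) and NOTCH1 (-0.80) and the target HES1 (-0.76). Without day 5 of time course 2, 4 were higher.

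BMP and TGF-beta genes were higher in 8 of 19 tested, of 24 listed, and lower in 2, with a median of 0.49, and 1 was lower without any pair but day 6 of time course 1. BMP2, a ligand that promotes heart formation, had 8.21, 8.89, 8.70 and 9.79 with and 5.37, 5.05, 5.40 and 5.40 without, and 3.59 ± 0.22 (12.1-fold, adjusted p = 0.00014). BMP7, a related ligand, had 6.96, 8.88, 7.82 and 9.84 with and 5.47, 5.09, 6.21 and 5.72 without, and 2.75 ± 0.13 (adjusted p = 4.1e-05). From the day of start BMP2 fell by 2.18 without IWP-2 and was 1.41 higher with it. TGFB2 was higher by 2.97 and the TGF-beta-induced matrix gene TGFBI lower, at -2.64.

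Genes that report FGF and ERK activity were higher in 8 of 17 tested, of 18 listed, and lower in 1, with a median of 0.90, which was 0.52 without day 5 of time course 1 and 0.58 without day 6 of it. DUSP6, the phosphatase that damps ERK, had 10.28, 10.25, 10.23 and 11.07 with and 7.92, 5.77, 8.82 and 7.18 without, and 3.04 ± 0.23 (8.2-fold, adjusted p = 0.00024). SPRY4, a feedback inhibitor of receptor signalling, had 6.58, 7.71, 6.92 and 8.37 with and 5.35, 4.80, 6.03 and 5.63 without, and 1.94 ± 0.12 (adjusted p = 0.00013). DUSP5 and the transcription factor ETV5 were higher by 2.86 and 2.44, and the receptor FGFR2 was lower, at -1.44. The list gave 4 higher genes when the 8 arrays were fitted alone, and 2 lower without day 5 of time course 2. Of 12 tested retinoic acid genes, of 17 listed, 2 were higher, the receptor RARB (2.14 ± 0.15, adjusted p = 0.00021) and the binding protein CRABP2 (1.79). Lower were 4, among them STRA6 (-1.29), the importer of retinol, and DHRS3 (-1.46), which turns retinal back into retinol. Without the replicate block 1 was higher and 1 lower.

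Proliferation genes did not differ together over both days, with 3 of 26 lower, 0 higher and a median of -0.40, which was -0.21 without day 5 of time course 1. The third day alone gave 0 lower and a median of 0.17, and the fourth day alone gave 15 lower and a median of -0.95. On the fourth day CDK1, the kinase that starts mitosis, differed by -1.30 (adjusted p = 0.0089) and TOP2A, a topoisomerase of dividing cells, by -1.41 (adjusted p = 0.021). The count over both days was 0 without day 5 of time course 1 or day 5 of time course 2, 7 without day 4 of time course 2 and 9 without day 6 of time course 1.

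The remaining lists had calls in both directions, to be read beside 10.3% higher and 10.4% lower over all genes. Of 20 tested pluripotency genes, of 22 listed, 1 was higher and 5 lower, among them ZFP42 (-1.70), ZSCAN10 (-0.96) and SALL4 (-0.93), and of 16 primitive streak genes 3 were higher and 2 lower. Without either day 5 pair 1 streak gene was higher, and 0 were lower without that of time course 2. Neuroectoderm gave 2 higher of 10 tested, OTX2 (1.89), a head and brain factor, and NES (1.63), the intermediate filament nestin, and 1 lower, ZIC2 (-1.05). Of 11 tested skeletal muscle and somite genes 1 was higher, 0 without day 5 of time course 2, and 1 lower, and the other 13 of 24 were not tested. Trophoblast and amnion genes gave 1 higher and 3 lower of 12, with 2 to 5 lower without each pair in turn and IGFBP3, which binds insulin-like growth factors, at -2.44 ± 0.47 (adjusted p = 0.01). Of 19 stress and RNA quality genes 2 were higher and 3 lower: GADD45A (1.76) and FOS (0.93), ATF3 (-2.13), HMOX1 (-1.04) and DNAJB1 (-0.41). DNAJB1 lost its call without any pair but day 6 of time course 1, and without that pair 5 stress genes were higher.

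The next comparison asked whether the inhibitor effect on the third and the fourth day differed from that on the first and second. It was tested as the difference of the 2 mean effects in the same fit. It was positive in 373 genes, 2.75% of those tested, and negative in 305, 2.25%. The total of 678 was 228 without day 5 of time course 1, 443 without day 4 of time course 2, 466 without day 5 of time course 2 and 1077 without day 6 of time course 1.

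Many contractile genes shifted upward: 34 of 58 were positive and 1 negative, with a median of 1.94, and 25 to 41 were positive without each pair in turn. Their median effect had been 0 and 0.09 on the first and second day and was 1.01 and 2.85 on the third and the fourth. MYH6 had effects of -0.58, 0.30, 7.73 and 9.30 on the 4 days, a shift of 8.65 ± 1.00 (adjusted p = 0.0058). Before the third day, MYH6 had stood at 4.89 and 9.12 with IWP-2 and 5.85 and 6.29 without in time course 1, and at 4.49 and 5.47 with and 4.69 and 7.69 without in time course 2. The treated level thus crossed the untreated one between the first and second day in time course 1 and after the second day in time course 2. SMYD1 shifted by 5.53 ± 0.68 (adjusted p = 0.0069), NKX2-5 by 5.81 ± 0.32 (adjusted p = 0.00061) and CSHL1 by 5.38 ± 0.32 (adjusted p = 0.00088).

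Lists that were lower on the third and the fourth day differed in their earlier medians. HOX medians went from -0.36 and -0.97 to -1.54 and -1.95, with 5 of 16 genes shifting downward and 0 upward. HOXB8 shifted by -3.64 ± 0.50 (adjusted p = 0.01) and HOXC8 by -3.67 ± 0.46 (adjusted p = 0.0074). Fibroblast medians went from -0.10 and -0.96 to -1.19 and -1.50, with 4 of 20 genes shifting downward, 2 without day 5 of time course 1 and 9 without day 6 of time course 1. DCN shifted by -4.91 ± 0.80 (adjusted p = 0.017) and PITX1 by -5.46 ± 0.72 (adjusted p = 0.0092). ATP7B, a copper transporter, had 6.75, 7.02, 6.84 and 5.81 with IWP-2 and 9.62, 11.08, 9.69 and 10.90 without on the later days, and shifted by -3.76 ± 0.46 (adjusted p = 0.0071).

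Posterior regulators were already apart earlier, with list medians of -0.71, -1.56, -1.86 and -1.64 on the 4 days. CDX2 had effects of -4.24, -5.35, -4.88 and -3.49, and its shift of 0.61 did not pass (adjusted p = 0.56). MSX1 had effects of -2.81, -3.97, -4.68 and -3.53, and its shift of -0.71 did not pass either (adjusted p = 0.13). The opposite sign change was seen in DKK1, with a shift of 5.64 ± 0.58 (adjusted p = 0.0043), and in glycolysis, whose medians were -0.38, -0.22, 0.38 and 1.14 with 6 of 18 genes shifting upward. That count was 6 without day 6 of time course 1, 4 without day 4 of time course 2 and 2 without either day 5 pair.

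**Figure D3:**
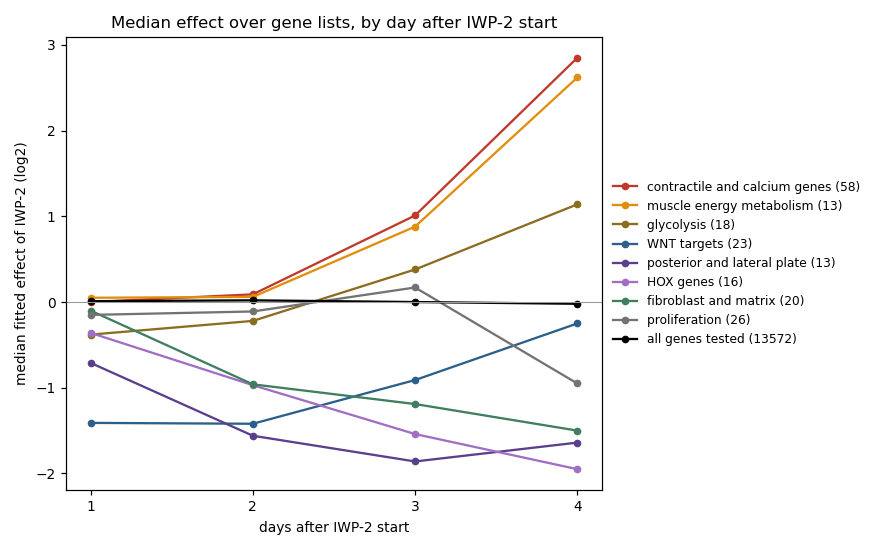
Median fitted inhibitor effect (log2, with minus without IWP-2, vertical axis) on the first to the fourth day after IWP-2 start (horizontal axis) over the tested genes of 9 lists, 1 line per list. The WNT targets stood at -1.41 and -1.42 on the first 2 days and at -0.25 on the fourth, while the HOX list went from -0.36 to -1.95.

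Whether the effect still moved between the third and the fourth day could be tested for each gene only with 2 pairs a day. By limma, 0 genes passed, with 1582 at an unadjusted p under 0.05. The count was 1 without the replicate block, 12 when 27 arrays were fitted, 2 after median scaling or after normalising the 16 arrays alone, and 0 to 234 without each pair in turn, with 234 without day 6 of time course 1. The genes nearest to the threshold, at an adjusted p of 0.065, included BMP7 with a difference (the fourth minus the third day) of 2.41 ± 0.25, NES with 1.90 ± 0.22, MYOM1 with 5.17 ± 0.69, ENG, a TGF-beta co-receptor of endothelium, with 1.89 ± 0.22 and PDPN, the membrane glycoprotein podoplanin, with -1.68 ± 0.21. The median of this difference was 1.46 over the contractile genes, -1.06 over the proliferation genes, where 0 of 26 were above 0, and -0.02 over all genes.

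The 2 time courses differed in the days on which IWP-2 was given, and the 8 arrays were also compared for that. By limma, 0 genes passed for the effect in time course 2 minus that in time course 1, with 799 at an unadjusted p under 0.05 and a lowest adjusted p of 0.74. Without each pair in turn 0 to 62 genes passed, with 62 without day 4 of time course 2. This test had 2 residual degrees of freedom, and window, run and day of sampling cannot be told apart in it. For the matrix genes LUM, DCN and COL3A1 the treated levels were higher in time course 1, as given above.

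A difference between the arms can come from a rise in one or a fall in the other, so each arm was set against the arrays of the day IWP-2 was started. Both comparisons share the 2 arrays of that day and the fit over 27 arrays. With IWP-2, 2302 genes rose, 17% of those tested, and 2435 fell, 17.9%, by the third and the fourth day. Without it, 2208 rose, 16.3%, and 2346 fell, 17.3%.

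Contractile genes rose with IWP-2 in 46 of 58 cases and fell in 1, with a median change of 2.50, and rose in 11 and fell in 0 without it, with a median change of 0.10. That count without IWP-2 was 7 without day 4 of time course 2 and 9 to 13 without each of the others. ACTC1 and MYL4 rose in both arms, by 7.01 and 8.64 with IWP-2 and by 4.37 and 4.84 without. MYH6 rose by 9.59 with IWP-2, and its change of 1.08 without it did not pass. Cardiac transcription regulators rose in 18 of 24 cases with IWP-2 (median change 2.86) and in 10 without (1.46). Muscle energy genes rose in 9 of 13 with IWP-2 and in 1 without.

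HOX genes rose without IWP-2 in 12 of 16 cases, with a median change of 2.77, and with IWP-2 in 4, with a median of 0.10. Fibroblast and matrix genes rose in 14 of 20 without it (median 2.64) and in 6 with it (median 0.66), the latter 4 without day 5 of time course 1 and 9 without day 5 of time course 2. For FGF and ERK genes the arms differed in how far they fell: 12 of 17 fell without IWP-2 (median -1.29) and 7 fell with it (median -0.36), and without day 5 of time course 1 the first of these counts was 7. SPRY4 changed by -4.22 without and by -2.28 with the inhibitor. Glycolysis genes fell in 12 of 18 without IWP-2, 3 without day 5 of time course 2, 7 without day 4 of time course 2, 8 without day 6 of time course 1 and 11 without day 5 of time course 1, and 0 fell with it. Proliferation genes fell in both arms, 22 of 26 with IWP-2 and 16 without. CDX2 fell by 4.13 with IWP-2 and its change of 0.05 without it did not pass, so that here the treated arm moved.

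**Figure D4:**
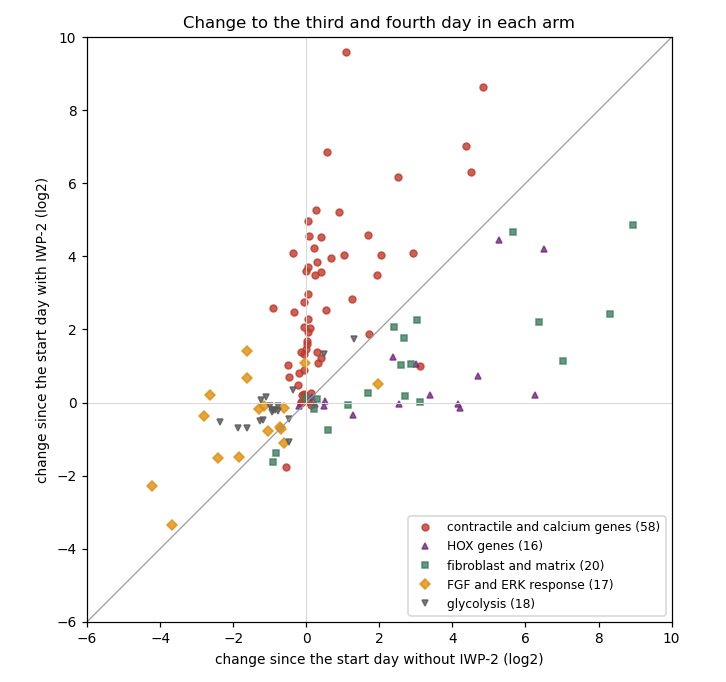
Change of single genes from the day of IWP-2 start to the third and the fourth day (log2), without IWP-2 on the horizontal and with IWP-2 on the vertical axis, coloured by list: contractile (58 genes), HOX (16), fibroblast and matrix (20), FGF and ERK (17) and glycolysis (18). The line marks equal change, and the 2 arrays of the start day enter both axes. Of the contractile genes 55 lie above the line, with a median of 2.50 with and 0.10 without IWP-2, and of the HOX genes 1 does, with medians of 0.10 and 2.77.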

How the data were processed

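Total RNA of 27 samples was measured on Illumina bead arrays, 1 array per day, time course and arm, after 14 h of in-vitro transcription per the labels' protocols. The authors deposited a non-normalized table of probe intensity with a detection p-value for each probe and array, per the file headers, and GenomeStudio is named per the submitters' processing notes, with no version there. The authors also deposited processed values on a linear intensity scale for each time course, whose column medians are 6.876 in time course 1 and 4.63 in time course 2, with scale and centring not given in the sources used here. These served as an alternative only. The deposited tables held 0 columns of samples outside the series.

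From the intensities, limma 3.58.1 in R 4.3.3 estimated the background from the detection p-values, added an offset of 16, quantile normalized and took log2 (neqc). Quantile normalization gives all arrays the same highest value. Probes detected (p below 0.01) on at least 2 of all 27 arrays of the series were kept, 23933 of 47323. A gene could therefore enter the test through the arm in which it was high. A symbol was taken from GEO's platform annotation, which names 1 gene for 30113 probes, several for 8 and none for 17202, and each gene is represented by its kept probe of highest mean, with other probes (3820 genes had them) given for named genes that passed where such a probe did not. The 32 lists hold 556 genes, of which 524 are named by a probe and 451 entered the test.

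The inhibitor effect was fitted on 16 arrays with 1 block per pair and 1 effect per day after start, leaving 4 residual degrees of freedom, plus 3.65 from moderation. The labels name each untreated array as the control of the same day and time course, and the deviations of paired arrays over genes correlated at 0.73, 0.449, 0.513 and 0.367 on the 4 days. The time course comparison used 8 arrays, and changes since start used 27 arrays with time course as a block. P-values were adjusted over the 13572 genes tested (Benjamini-Hochberg, threshold 0.05). The number of arrays limits the precision, and the array values have no read depth. The scripts were tested on simulated data.

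The members and lists were chosen with earlier results of these data known. Named genes are the 10 largest differences in each direction that passed with 1 sign in all 4 pairs, up to 4 passing members of each list, members that define a list, a fixed set of cardiac, WNT and matrix genes, and the 5 largest in each direction of the other comparisons. Further list members, the genes given as nearest to the threshold between the days and the promoters shown were chosen after their values were seen. Marker sums add linear normalised intensities with the offset left in. Promoters are RefSeq's (GRCh38.p14), 250 bases before the start, with the 50 bases after it left out. No slide was named, so no slide block was fitted. The alternatives were no block, 8 or 27 arrays, array weights, other normalizations and filters, probe averaging, the authors' processed values, stricter thresholds and leaving out each pair.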

Additional observations from a re-analysis of the deposited data

Results flagged for a closer look

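In 10 genes the inhibitor effect on the third and the fourth day differed from that on the first and second day by the test of that difference in limma (adjusted p below 0.05). The shift was positive for MYH6 (8.65), NKX2-5 (5.81), DKK1 (5.64), SMYD1 (5.53) and CSHL1 (5.38), and negative for PITX1 (-5.46), DCN (-4.91), ATP7B (-3.76), HOXC8 (-3.67) and HOXB8 (-3.64). These are the 5 largest shifts in each direction among the genes that passed. In DKK1 the effect per day went from -4.04 and -2.94 on the first and second day to 1.00 and 3.28 on the third and the fourth.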

How the results depend on the processing

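With all arrays, 2807 genes passed for the mean effect. This count was 1331 without the replicate block, 1313 with 8 arrays and 1 inhibitor effect, 1304 with 1 value per time course, 1256 at an adjusted p below 0.01, 932 at 2-fold or more, and 1469 to 2755 without each pair in turn. The pairing comes from the labels. For the shift between early and late days, 678 genes passed, against 185 with no replicate block, 371 with 27 arrays, 143 at an adjusted p below 0.01 and 228 to 1077 without each pair. For the fourth minus the third day the counts were 0, 1 with no replicate block, 12 with 27 arrays, 2 with median scaling, 2 with 16 arrays normalized alone, and 0 to 234 without each pair. For the difference between time courses they were 0, and 0 to 62 without each pair. The changes since start, 4737 genes with and 4554 without IWP-2, became 2877 and 2495 at an adjusted p below 0.01, 1994 and 1841 at 2-fold or more, and 3653 to 4365 and 3363 to 3908 without each pair. With a pair left out, the remaining pair of that day is assumed to vary like those of the other days. Under the alternatives run, no named gene that passed changed sign, and HAND2, which did not pass, ranged from -0.63 to 0.36. Median scaling moved the share of higher among the genes that passed from 49.7% to 44.8% and the median of all genes to -0.053. Signal near background limits the genes given with "at least" and those detected on only some arrays of an arm. MYH6 stood at the brightest end of the arrays.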
